A study of Mus musculus with 12 samples.

Results

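The 36 aminoacyl-tRNA synthetase genes described here were taken by name, 20 for the cytosolic enzymes and 16 for the mitochondrial enzymes, whose gene names end in 2. They were matched to the Ensembl identifiers of the count table, which lists 46603 genes. All 36 were in the table and all 36 passed the filter on low counts, with 13167 genes in all. Gene names follow the annotation of that table, so that Aars, Sars and the others are the genes also called Aars1 and Sars1. The rule itself uses names and no measured value, although the members were chosen with earlier results of these data known.

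The cells were OT-I/Cas9 CD8 T cells, primary mouse T cells that carry one T cell receptor specific for ovalbumin and express the Cas9 nuclease throughout. They had been activated once, transduced with a guide RNA, selected with puromycin and expanded in IL-2, IL-7 and IL-15, so that each group is a pool of selected cells and no clone. Control cells (genotype Ctrl) carried a non-targeting guide and received H2O as vehicle or 100 µM AGN192403, a small molecule known as an imidazoline receptor ligand. Tmed10 KO cells carried a guide against Tmed10, which encodes a p24 family cargo receptor of the early secretory pathway, and received H2O. Each of these 3 arms was kept at rest (Rest) or activated (Act) on plates coated with anti-CD3 antibody at 2.5 µg/mL, for 24 hours, which makes 6 groups of 2 libraries and no group with both KO and compound. The labels number the replicates but do not say whether they came from separate mice or cultures, so that p-values measure the spread between these libraries, which may be technical.

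The 12 libraries held between 9089350 and 16481840 counts in genes. Tmed10 fell in the KO libraries to 63.3 ± 2.49 CPM (counts of a gene scaled to a library total that is the same for all libraries, mean ± SD, n = 2) from 117 ± 0.357 at rest and to 57.1 ± 1.72 from 127 ± 2.02 after activation, by edgeR's quasi-likelihood test (log2 fold change -0.89 and -1.15, adjusted p 2.08e-11 and 6.85e-14). Of the defining markers, all 10 CD8 T cell genes were expressed, with a summed level between 12260 and 24022 CPM across libraries that was mostly Gzmb, which encodes granzyme B. Summed markers of B cells (5 genes, at most 8.08 CPM), myeloid cells (8 genes, at most 2.73 CPM) and red cells (4 genes, at most 0.300 CPM) stayed low, with Ms4a1 and Hbb-bs at 0 in all libraries. Those of CD4 T cells (4 genes) summed to between 40.5 and 74.8 CPM, mostly Zbtb7b with Cd4 itself near 0, and those of NK cells (4 genes) to between 82.1 and 173 CPM, nearly all Eomes, which CD8 T cells also express.

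An aminoacyl-tRNA synthetase joins one amino acid to its tRNAs and so supplies the ribosome. The cytosol and the mitochondrion use separate sets of enzymes, nearly all encoded by separate nuclear genes, while Gars and Kars serve both compartments. The enzymes fall into class I and class II by the fold of their catalytic domain, and several cytosolic members sit together in the multisynthetase complex. Many cytosolic synthetase genes are commonly listed as targets of ATF4, the transcription factor that is translated when the integrated stress response is on and that drives genes of amino acid supply. By that listing, 12 members (Aars, Cars, Eprs, Gars, Iars, Lars, Mars1, Nars, Sars, Tars, Wars and Yars) were compared with the other 8 cytosolic members (Dars, Farsa, Farsb, Hars, Kars, Qars, Rars and Vars). This list was drawn up with earlier results of these data known, so that the split describes the values and is no independent test. Levels are given in CPM and changes as log2 fold changes with their standard error from the fit over all genes. A gene is called higher or lower where its Benjamini-Hochberg adjusted p over all tested genes was under 0.05 in edgeR's quasi-likelihood test. Where libraries of named members are said not to overlap or to lie apart, this describes the values behind a call and is no further support. With 2 libraries a group, unchanged genes often do not overlap either, and the share over all tested genes was not counted.

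ATF4 binds, with a C/EBP partner, the composite element TGATGNAA, where N is any base. The RefSeq promoter windows, from 250 bases before to 50 bases after the start of each gene in GRCm38.p6, were searched for it on both strands, and no other motif was searched. Entries matched 27 of the 36 members, and 5 of these held the letters, against 4.51% of 27025 genes in the table. All 5 were among the 8 ATF4-listed members with an entry (62.5%), while 0 of the 5 other cytosolic and 0 of the 14 mitochondrial members with an entry held them. Cars, Hars, Lars, Nars, Rars, Vars, Wars, Hars2 and Pars2 had no entry. A match is a description of the letters and not a shown binding site, and a window without one lacks only these letters.

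The stretches below show the 5 promoters with a match and, for comparison, 2 cytosolic ones without a match, Sars and Dars, whose levels changed most and least on AGN192403 at rest among the cytosolic members with an entry and no match. Each runs 5′ to 3′ on the strand of its gene from upstream of the start to the end of the first 20 transcribed bases, as RefSeq gives them in GRCm38.p6. Capitals mark the motif, and positions count from 0 at the first transcribed base.
Aars (chr8:111033717-111033861, plus strand; motif at -112 and 9): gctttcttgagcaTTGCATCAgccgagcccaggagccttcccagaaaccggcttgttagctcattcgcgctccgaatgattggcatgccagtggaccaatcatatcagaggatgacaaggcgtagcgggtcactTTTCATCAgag
Gars (chr6:55037876-55038020, plus strand; motif at -30): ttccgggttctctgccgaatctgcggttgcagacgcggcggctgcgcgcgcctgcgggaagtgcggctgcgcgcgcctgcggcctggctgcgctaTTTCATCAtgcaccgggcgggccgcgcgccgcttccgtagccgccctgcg
Iars (chr13:49682005-49682149, plus strand; motif at 7): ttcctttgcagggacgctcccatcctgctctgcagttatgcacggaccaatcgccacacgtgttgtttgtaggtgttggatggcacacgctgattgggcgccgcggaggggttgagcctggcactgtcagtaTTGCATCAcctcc
Tars (chr15:11399639-11399783, minus strand; motif at -15): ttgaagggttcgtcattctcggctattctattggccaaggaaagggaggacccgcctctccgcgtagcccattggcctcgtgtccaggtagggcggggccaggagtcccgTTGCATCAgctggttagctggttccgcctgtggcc
Yars (chr4:129189778-129189922, plus strand; motif at 3): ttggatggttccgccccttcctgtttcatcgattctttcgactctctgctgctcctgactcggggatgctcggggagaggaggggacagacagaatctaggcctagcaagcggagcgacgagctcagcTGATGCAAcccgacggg
Sars (chr3:108445240-108445384, minus strand; no match): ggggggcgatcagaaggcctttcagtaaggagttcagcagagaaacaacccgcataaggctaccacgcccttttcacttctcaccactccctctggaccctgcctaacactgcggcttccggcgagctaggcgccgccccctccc
Dars (chr1:128417397-128417541, minus strand; no match): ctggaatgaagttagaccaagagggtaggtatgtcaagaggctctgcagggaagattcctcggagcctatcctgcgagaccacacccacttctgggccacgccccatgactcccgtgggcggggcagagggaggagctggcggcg

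The cytosolic members stood above most mitochondrial members in level. Per kilobase of merged exons, Gars, the glycine enzyme of both compartments, was the highest member, at 81.1 ± 2.57 CPM per kilobase (n = 2) at rest and 142 ± 0.483 after activation. Over the mean of all 6 groups the 16 highest members were all cytosolic, and the order among the first 4 ran Gars, Nars, Hars and Kars. Hars moved from rank 3 to 7 when the longest transcript stood in for merged exons, so that the order below Gars and Nars depends on the length used. Lars2, the mitochondrial leucine enzyme, moved from rank 17 to 10 with the longest transcript, so that the 16 highest were then not all cytosolic. Among mitochondrial members it was the highest per kilobase of merged exons, at 28.9 ± 2.73 CPM per kilobase at rest. Ears2, the mitochondrial glutamate enzyme, was the lowest of the 36, at 1.21 ± 0.236. Ears2 was covered by 54 to 143 counts a library, so that its values carry the largest counting error.

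The summed level of the 20 cytosolic members was 3357 ± 43.99 CPM (SD, n = 2) in control cells at rest, 4488 ± 34.2 with AGN192403 and 3670.3 ± 6.43 in Tmed10 KO cells. After activation it was 5682 ± 33.5, 6437 ± 274 and 6354 ± 105 in the same order. Each of these groups lay clear of its control in both libraries. The mitochondrial sum ranged less, from 720.3 ± 24.3 CPM in control cells at rest to 861 ± 7.28 after activation. Lars2 made up between 32.4 and 47.7% of the mitochondrial sum in each library. Without Lars2 the sum was 400.2 ± 5.88 CPM in control cells at rest and 559.6 ± 0.621 after activation. Reads of 2 members may also come from other genes. Aars shares 13.5% of its 50-base exon stretches with Exosc6, which overlaps it on the same strand, and Iars 7.15% with the processed pseudogene Gm4849, so that their values are uncertain to that extent. Mars1, Wars, Yars, Farsb, Hars, Hars2, Cars2, Ears2, Iars2 and Fars2 overlap a gene on the opposite strand, and whether the counting used strand is not given in the sources used here. In bulk libraries, more RNA per cell and more cells of a kind cannot be told apart, and CPM values are shares of a library.

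**Figure D1:**
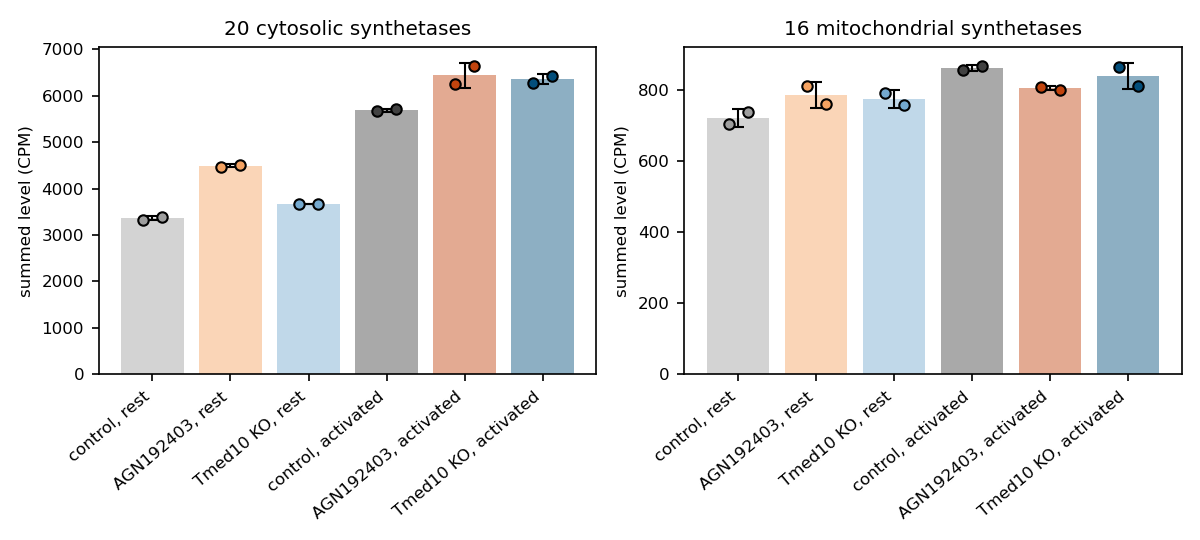
Summed level in CPM (vertical axes) of the cytosolic members (left) and the mitochondrial members (right) in the 6 groups. Points are libraries, bars group means and error lines the SD (n = 2); the cytosolic sum was higher with AGN192403, with Tmed10 KO and with activation, and the mitochondrial sums of the groups lay within 720.3 to 861 CPM.

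Activation of control cells raised most synthetases. At 24 hours on anti-CD3, 19 of the 20 cytosolic members and 10 of the 16 mitochondrial members were higher and 0 were lower, where 73.8% of all tested genes were called, 36.4% higher and 37.4% lower. DESeq2 called 0 lower as well, and 1 member was lower at an unadjusted p under 0.05 in edgeR. The median log2 fold change was 0.91 over the cytosolic and 0.24 over the mitochondrial members, against -0.02 over all genes. The ATF4-listed members (median 0.91) and the other cytosolic members (0.93) had like medians here, and all 8 members of the multisynthetase complex were higher. Among the CD8 T cell markers Gzmb stood at 9629 ± 269 CPM in resting and 20004 ± 641 CPM in activated control cells, Cd3e at 583 ± 7.82 and 248 ± 16.1, Cd8a at 633 ± 1.34 and 682 ± 13.00, and the NK cell marker Eomes at 167 ± 7.82 and 82.1 ± 0.294. Their part in the result was not tested.

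Hars, the histidine enzyme, led the cytosolic members. Its level was 98.2 and 98.7 CPM in the 2 resting and 239 and 249 CPM in the 2 activated control libraries (log2 fold change 1.31 ± 0.05, adjusted p 2.42e-17). Both activated libraries stood more than 2-fold above both resting ones. The 2 subunits of the cytosolic phenylalanine enzyme rose alike: Farsa went from 59.05 and 65.5 to 146 and 142 CPM (1.20 ± 0.06) and Farsb from 69.3 and 70.6 to 159 and 167 CPM (1.22 ± 0.05). Rars, the arginine enzyme of the complex, went from 100.4 and 107 to 244 and 225 CPM (1.17 ± 0.05), and Lars, the cytosolic leucine enzyme, from 118 and 126 to 271 and 272 CPM (1.15 ± 0.05). For these 4 members, too, the resting and activated libraries did not overlap.

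Vars, the cytosolic valine enzyme, was the exception. It stood at 340.5 and 355 CPM at rest and 362 and 361 CPM after activation (log2 fold change 0.05 ± 0.04, adjusted p 0.216). It was among the 7 highest members per kilobase of merged exons, and stood at rank 9 by the longest transcript. Qars (0.19) and Dars (0.17), the glutamine and aspartate enzymes of the complex, and Wars (0.32), the cytosolic tryptophan enzyme, were the called cytosolic members with the smallest rise.

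Among the mitochondrial members Yars2, the tyrosine enzyme, rose most, from 14.6 and 15.8 to 39.2 and 41.03 CPM (log2 fold change 1.39 ± 0.08, adjusted p 9.68e-14). Mars2, the methionine enzyme, went from 18.2 and 19.4 to 37.5 and 39.1 CPM (1.02 ± 0.08) and Rars2, the arginine enzyme, from 26.5 and 24.7 to 51.2 and 47.5 CPM (0.95 ± 0.08). In these 3 the resting and activated libraries did not overlap. Lars2 (-0.09), Pars2 (-0.14), Fars2 (-0.23), Wars2 (0.01), Sars2 (0.01) and Ears2 (0.17) were not called, and these values are log2 fold changes.

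The other 2 arms were activated against their own resting libraries. With AGN192403, 17 cytosolic members were higher and 1 lower, and 8 mitochondrial members were higher and 3 lower (70% of all tested genes called, 33.9% higher and 36.1% lower). In Tmed10 KO cells 19 cytosolic members were higher and 1 lower, and 9 mitochondrial members were higher and 2 lower (73.7% of all tested genes called, 37.2% higher and 36.5% lower). The cytosolic median was 0.59 with AGN192403 and 0.95 in KO cells. Hars had the largest cytosolic rise in each arm, 1.03 ± 0.05 with AGN192403 and 1.28 ± 0.05 in KO cells, and Yars2 the largest mitochondrial rise, 0.99 ± 0.09 and 1.33 ± 0.08.

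The next cytosolic rises with AGN192403 were those of Farsa (0.98), Farsb (0.94), Rars (0.87) and Lars (0.84). In KO cells they were those of Farsb (1.20), Lars (1.19), Yars (1.09) and Eprs (1.09), the last of which encodes the enzyme that charges both glutamate and proline tRNAs. Among mitochondrial members Mars2 (0.92) and Aars2 (0.75), the alanine enzyme, followed with AGN192403, and Nars2 (1.03), the asparagine enzyme, and Mars2 (0.86) in KO cells.

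Vars fell on activation in both of these arms, by 0.13 (adjusted p 0.00547) on the log2 scale with AGN192403 and by 0.18 (adjusted p 0.000284) in KO cells. The call with AGN192403 was lost in 6 of 19 alternative fits, with an adjusted p of up to 0.131, among them the fits without either library of resting or replicate 1 of activated AGN192403 cells. Lars2 and Pars2, the mitochondrial proline enzyme, fell as well. Pars2 went from 10.7 and 9.51 to 6.04 and 7.06 CPM with AGN192403 (-0.60 ± 0.14) and from 11.5 and 10.5 to 7.92 and 8.18 CPM in KO cells (-0.47 ± 0.13). Lars2 went from 371 and 323 to 279 and 270.4 CPM with AGN192403 (-0.33 ± 0.07) and from 377 and 344 to 311 and 263 CPM in KO cells (-0.33 ± 0.07). In both genes and both arms each activated library lay below both resting libraries. DESeq2 did not call Pars2 lower in KO cells. When these activation responses were compared directly with that of control cells, neither gene was called in either arm. Fars2 (-0.25) was called lower with AGN192403 at an adjusted p of 0.0427, which was lost in 13 of 19 alternatives.

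**Figure D2:**
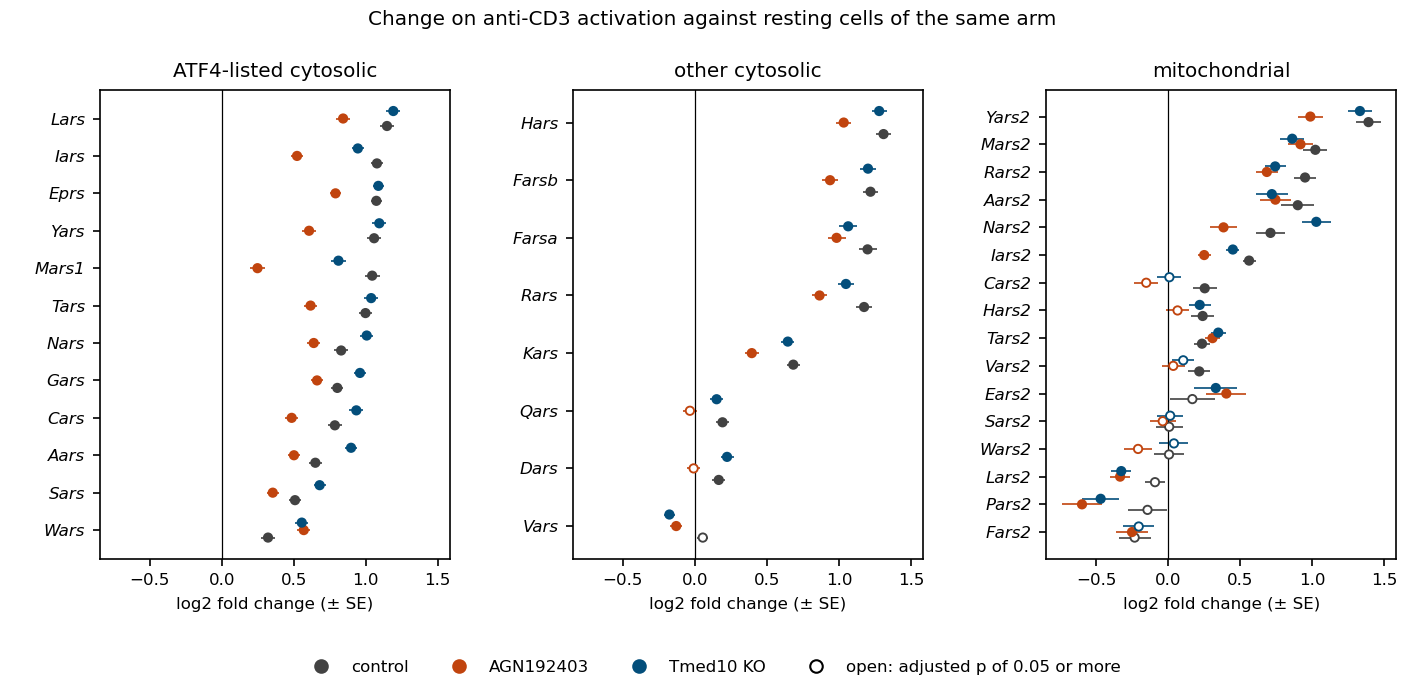
Log2 fold change on activation (horizontal axes, ± SE of the fit) of each member, in control, AGN192403 and Tmed10 KO cells, with ATF4-listed cytosolic, other cytosolic and mitochondrial members in separate panels, ordered by the control value. Filled points passed an adjusted p of 0.05; the AGN192403 points lie below the control points for most cytosolic members, and Vars lies near 0 in all arms.

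AGN192403 raised the ATF4-listed synthetases in resting cells. Against vehicle, 14 of 20 cytosolic and 3 of 16 mitochondrial members were higher and 0 were lower, with 25.4% of all tested genes called, 11.6% higher and 13.7% lower. By DESeq2, and at an unadjusted p under 0.05 in edgeR, 0 were lower as well. All 12 ATF4-listed members were higher, with a median log2 fold change of 0.61, against 2 of the other 8 cytosolic members (Farsb and Rars), with a median of 0.11. The median over all tested genes was -0.01. By class, 8 of 10 class I and 6 of 10 class II cytosolic members were higher. By the complex, 5 of 8 members in it and 9 of 12 outside it were higher. Of the markers, Gzmb stood at 8521 ± 87.1 CPM with AGN192403 and 9629 ± 269 with vehicle, and Eomes at 133 ± 5.99 and 167 ± 7.82. The CD8 T cell marker Prf1 stood at 182 ± 5.46 and 287 ± 2.22, and Cd8a at 644 ± 7.13 and 633 ± 1.34. The part of these markers in the result was not tested.

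Sars, the cytosolic serine enzyme, changed most. Its level was 216 and 211 CPM in the vehicle libraries and 363 and 367 CPM with AGN192403, a log2 fold change of 0.78 ± 0.04 (adjusted p 8.49e-13). Iars, the cytosolic isoleucine enzyme, went from 188 and 197 to 313 and 308 CPM (0.69 ± 0.04) and Nars, the asparagine enzyme, from 207 and 207 to 326 and 332 CPM (0.67 ± 0.05). For each of the 3 both treated libraries stood at least 100 CPM above both vehicle libraries. Cars, the cysteine enzyme, went from 76.6 and 73.7 to 113 and 122 CPM (0.65 ± 0.05) and Mars1, the methionine enzyme of the complex, from 107 and 119 to 173 and 177 CPM (0.62 ± 0.05), again without overlap.

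The other ATF4-listed members were called with log2 fold changes from 0.32 (Wars) to 0.61 (Tars, the threonine enzyme). Wars stood at 135 and 137 CPM in vehicle and 176 and 164 CPM in treated libraries, and Tars at 113 and 114 CPM against 171 and 177 CPM. Aars, the alanine enzyme, stood at 228 and 208 CPM against 327 and 332 CPM (0.60 ± 0.05). Gars stood at 247 and 259 CPM against 362 and 364 CPM (0.52 ± 0.04), Lars at 118 and 126 CPM against 189 and 184 CPM (0.61 ± 0.05). Eprs stood at 280.04 and 293 CPM against 423 and 425 CPM (0.56 ± 0.04), and Yars, the cytosolic tyrosine enzyme, at 89.6 and 88.4 CPM against 126 and 134 CPM (0.55 ± 0.05). Treated and vehicle libraries of these 7, which were named for their calls, did not overlap. The promoters shown with the motif (Aars, Gars, Iars, Tars and Yars) had log2 fold changes from 0.52 to 0.69. Sars and Dars, shown without it, had 0.78 and 0.01, and were chosen for these changes.

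Dars and Vars stayed near their vehicle level. Dars (195 and 204 against 197 and 205 CPM, log2 fold change 0.01 ± 0.05) and Vars (340.5 and 355 against 339.9 and 337 CPM, -0.04 ± 0.04) were not called, and their groups overlapped or lay within 1 CPM of doing so. Kars, the lysine enzyme of both compartments, stood at 237 and 236 CPM against 251 and 250.3 CPM (0.08 ± 0.05, adjusted p 0.227). Among the mitochondrial members Nars2 went from 10.99 and 12.3 to 15.7 and 15.9 CPM (0.43 ± 0.11, adjusted p 0.00406), the largest called change of that set. Wars2 (16.4 and 15.2 to 19.02 and 18.8 CPM, 0.26 ± 0.10, adjusted p 0.0499) and Rars2 (26.5 and 24.7 to 29.6 and 31.3 CPM, 0.26 ± 0.09, adjusted p 0.026) were called close to the threshold. DESeq2 called 0 mitochondrial members here, and edgeR called 1 without either resting vehicle library or without replicate 2 of the treated cells.

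In activated cells the same compound split the family. Against vehicle, 10 cytosolic members were higher and 5 lower, and 2 mitochondrial members were higher and 3 lower, with 34.7% of all tested genes called, 16.4% higher and 18.3% lower. The 10 higher members were all ATF4-listed (median of the 12, 0.33). Of the other 8 cytosolic members edgeR called 0 higher and 4 lower (median -0.12), where the median over all genes was -0.01. Of these 8, 0 were higher by DESeq2 or at an unadjusted p under 0.05. The fifth lower cytosolic member was Mars1, which is ATF4-listed, and Yars was not called. In these treated cells Gzmb stood at 13407 ± 717 CPM against 20004 ± 641 with vehicle, Cd8a at 747 ± 47.05 against 682 ± 13.00, Zbtb7b at 65.1 ± 3.55 against 34.2 ± 2.31, Cd4 at 0.520 ± 0.201 against 0.752 ± 0.00378, and Eomes at 113 ± 5.34 against 82.1 ± 0.294. The part of these differences in the result was not tested.

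Sars was again the member that changed most, from 297 and 309.9 CPM in activated vehicle libraries to 450.01 and 483 CPM with AGN192403 (log2 fold change 0.62 ± 0.04, adjusted p 1.07e-11). Wars went from 169 and 171 to 243 and 260.2 CPM (0.57 ± 0.04) and Nars from 362 and 373 to 492 and 533 CPM (0.48 ± 0.04). Aars went from 338 and 345 to 452 and 480.3 CPM (0.45 ± 0.04) and Gars from 440.5 and 443 to 557 and 590.4 CPM (0.38 ± 0.04). In all 5 the treated libraries lay above both vehicle libraries, and in all 5 replicate 2 of the treated cells lay above replicate 1. That library also had the higher cytosolic sum, 6630.4 against 6243.5 CPM.

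Mars1 was higher with AGN192403 at rest and lower with it after activation, the only one of the 36 that edgeR called in opposite directions. Activated libraries held 238 and 230.5 CPM with vehicle and 202 and 214 CPM with AGN192403, a log2 fold change of -0.17 ± 0.05 (adjusted p 0.00751). The treated libraries lay below the vehicle libraries, whereas at rest they lay above. The call after activation was lost in 2 of 19 alternative fits, without replicate 1 of the activated vehicle cells and without replicate 1 of the treated cells, with an adjusted p of up to 0.0983. Mars1, on chromosome 10 at 127296221 to 127311786 of GRCm38, overlaps Ddit3 on the opposite strand. Ddit3, which encodes the stress factor CHOP, stood at 10.6 and 10.4 CPM in activated vehicle and 24.8 and 25.9 CPM in treated libraries (log2 fold change 1.28), and at rest at 20.5 and 16.8 and 34.9 and 32.5 CPM (0.86). The part of this overlap in the values of Mars1 was not tested.

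The other lower cytosolic members belong to those not listed for ATF4. Vars went from 362 and 361 to 305 and 313 CPM (log2 fold change -0.23 ± 0.04, adjusted p 6.01e-05) and Kars from 372 and 387 to 314 and 344 CPM (-0.21 ± 0.05). Dars went from 222 and 225 to 192 and 207 CPM (-0.16 ± 0.05). In these 3 the treated libraries lay below both vehicle libraries. Hars (239 and 249 against 213 and 234 CPM, -0.12 ± 0.05, adjusted p 0.0465) was called next to the threshold, and the call was lost in 15 of 19 alternatives. The 5 lower cytosolic members, Mars1 included, became 3 without either activated vehicle library and 2 without replicate 1 of the treated cells.

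Of the 16 mitochondrial members 2 were higher and 3 lower, which is near the shares over all tested genes (16.4% higher and 18.3% lower). Yars2 went from 39.2 and 41.03 to 32.8 and 31.4 CPM (log2 fold change -0.32 ± 0.07, adjusted p 0.00081), Mars2 from 37.5 and 39.1 to 31.6 and 30.6 CPM (-0.30 ± 0.07), and Iars2, the isoleucine enzyme, from 162 and 158 to 136 and 137 CPM (-0.23 ± 0.04). Ears2 went from 6.998 and 7.30 to 9.63 and 10.5 CPM (0.50 ± 0.14) and Tars2, the threonine enzyme, from 65.3 and 65.6 to 75.6 and 75.4 CPM (0.21 ± 0.05). The groups of these 5 did not overlap. DESeq2 called 2 mitochondrial members where edgeR called 5, and the 2 higher ones became 1 without replicate 1 of the vehicle or replicate 2 of the treated cells.

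**Figure D3:**
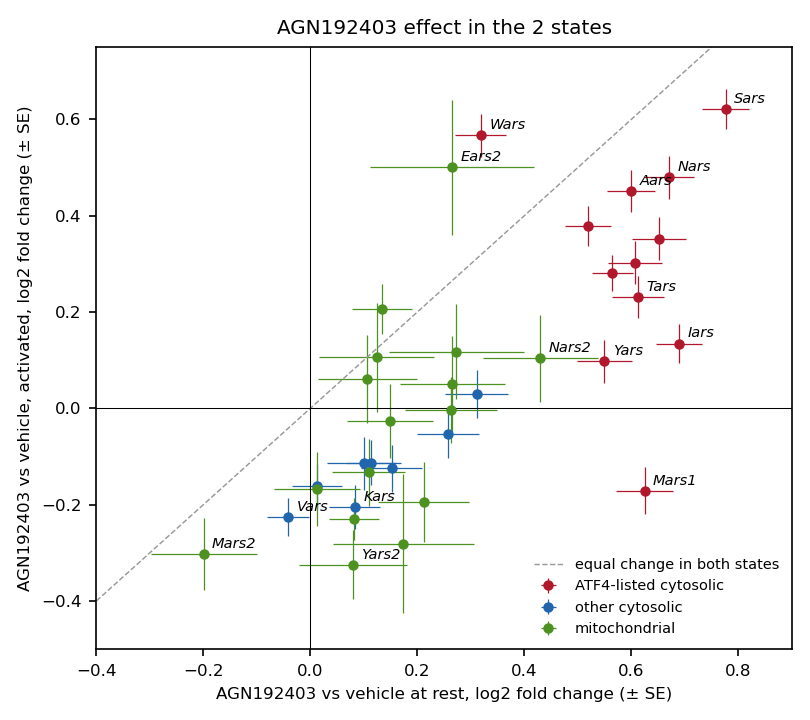
Log2 fold change of AGN192403 against vehicle at rest (horizontal axis) and after activation (vertical axis) for the 36 members, each with the SE of the fit. Most ATF4-listed members sit to the right of the other members and below the dashed line of equal change, with Mars1 below 0 after activation and Wars above the line.

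The difference between these effects was tested as the difference of the activation responses, treated minus vehicle. It was called lower for 14 cytosolic and 3 mitochondrial members and higher for 1, Wars, where 19.7% of all tested genes were called, 11.1% lower and 8.62% higher. The largest were those of Mars1 (-0.80 ± 0.07 on the log2 scale, adjusted p 3.26e-08), Iars (-0.55 ± 0.06, 3.24e-07) and Yars (-0.45 ± 0.07, 2.88e-05). Tars (-0.38 ± 0.07) and Rars (-0.31 ± 0.08) followed, and Cars2 (-0.41 ± 0.12), Yars2 (-0.40 ± 0.12) and Iars2 (-0.31 ± 0.06) were the 3 mitochondrial members. DESeq2 called 10 cytosolic and 1 mitochondrial member lower for this difference, and 1 cytosolic member higher. For Iars the effect was 0.69 at rest and 0.13 after activation, with 401 and 413 CPM in activated vehicle and 436 and 456 CPM in treated libraries. For Wars it was 0.32 at rest and 0.57 after activation, a difference of 0.25 ± 0.07 (adjusted p 0.00773). The count rested on replicate 2 of the treated resting cells, without which 8 members were called in place of 18.

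Tmed10 KO raised 8 synthetases in resting cells, among them those for serine and asparagine. Of the 20 cytosolic members 8 were higher and 0 were lower, where 7.44% of all tested genes were called, 2.81% higher and 4.63% lower. Of the ATF4-listed members 7 of 12 were higher (median log2 fold change 0.16), against 1 of the other 8 (Rars, median 0.06), with 0.00 over all genes. Of the mitochondrial members edgeR and DESeq2 each called 0, and 3 were higher at an unadjusted p under 0.05 in edgeR. By DESeq2, and at an unadjusted p in edgeR, 0 of the 36 were lower. Gzmb stood at 8589.8 ± 41.3 CPM in KO and 9629 ± 269 in control cells, and Eomes at 160.5 ± 4.005 and 167 ± 7.82. Prf1 stood at 196 and 203 CPM in the KO libraries and 286 and 289 CPM in the control libraries. Other CD8 T cell markers stood higher in KO cells, such as Cd8a (678 ± 6.24 against 633 ± 1.34 CPM). Cd3e (622 ± 9.84 against 583 ± 7.82) and Cd8b1 (284 ± 6.47 against 274 ± 3.81) did so too. The part of these markers in the result was not tested.

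Sars stood at 216 and 211 CPM in control and 252 and 254 CPM in KO libraries at rest (log2 fold change 0.25 ± 0.04, adjusted p 0.000663). Nars stood at 207 and 207 CPM against 243 and 243 CPM (0.23 ± 0.05, adjusted p 0.00309). Both had KO libraries above both control libraries. Rars (100.4 and 107 against 115 and 123 CPM, 0.19 ± 0.06), Tars (113 and 114 against 131 and 127 CPM, 0.18 ± 0.05) and Iars (188 and 197 against 220.3 and 214 CPM, 0.17 ± 0.04) did not overlap between groups either. Gars (0.17), Wars (0.16) and Eprs (0.14) completed the 8, all by log2 fold change. The count rested on single libraries: it was 2 without replicate 1 of the resting controls, 3 without replicate 1 of the resting KO cells and 14 without replicate 1 of the activated AGN192403 cells. Sars and Nars were called in all 19 alternative fits, and DESeq2 called 5 of the 36.

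After activation 10 cytosolic members were higher in Tmed10 KO cells and 1, Vars, was lower, where 19.6% of all tested genes were called, 10.8% higher and 8.78% lower. The 10 were all ATF4-listed (median 0.22), and 0 of the other 8 cytosolic members were higher (median 0.04, all genes 0.02). Of these 8, DESeq2 called 0 higher, and 2 were higher at an unadjusted p under 0.05 in edgeR. The ATF4-listed members that were not called were Iars (0.04) and Mars1 (-0.08). Both edgeR and DESeq2 called 0 mitochondrial members, and 1 was higher at an unadjusted p under 0.05 in edgeR. In these KO cells Gzmb stood at 18047 ± 669 CPM against 20004 ± 641 in controls, Cd8a at 773 ± 2.53 against 682 ± 13.00, Zbtb7b at 46.8 ± 3.87 against 34.2 ± 2.31 and Eomes at 103 ± 2.95 against 82.1 ± 0.294, and their part in the result was not tested.

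Sars, Nars and Wars changed most. Sars went from 297 and 309.9 CPM in activated control to 399 and 413 CPM in activated KO libraries (log2 fold change 0.42 ± 0.04, adjusted p 7.96e-08). Nars went from 362 and 373 to 467 and 510.2 CPM (0.41 ± 0.04) and Wars from 169 and 171 to 223 and 225 CPM (0.40 ± 0.05). Gars, at 440.5 and 443 in control and 536 and 569.9 CPM in KO libraries (0.32 ± 0.04), and Aars, at 338 and 345 CPM against 427 and 419.9 CPM (0.31 ± 0.04), came next. In these 5 both KO libraries lay above both controls. Vars went the other way, from 362 and 361 to 325 and 313 CPM (-0.18 ± 0.04, adjusted p 0.00167), with no overlap. The call of Vars held in all 19 alternatives.

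The difference of the activation responses, KO minus control, passed for 3 members, where 4.96% of all tested genes were called, 3.07% higher and 1.89% lower. These were Aars (0.25 ± 0.06, adjusted p 0.0195), Wars (0.23 ± 0.07, 0.036) and Vars (-0.23 ± 0.06, 0.0131). Aars shows it in its levels: at rest KO libraries held 229 and 225 CPM against 228 and 208 CPM in controls, overlapping, while after activation they did not overlap. Each of the 3 calls was lost in several alternatives, 10 of 19 for Aars, 12 for Wars and 4 for Vars, with adjusted p of up to 0.161, 0.265 and 0.0877. Without replicate 1 of the resting controls, of the activated controls or of the resting KO cells, edgeR called 0 members, and DESeq2 called 1 on all libraries. The split of 2 higher and 1 lower became 1 and 2 with median-ratio size factors and 2 and 2 with library totals. Of the mitochondrial members edgeR and DESeq2 called 0, and 3 had an unadjusted p under 0.05 in edgeR.

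**Figure D4:**
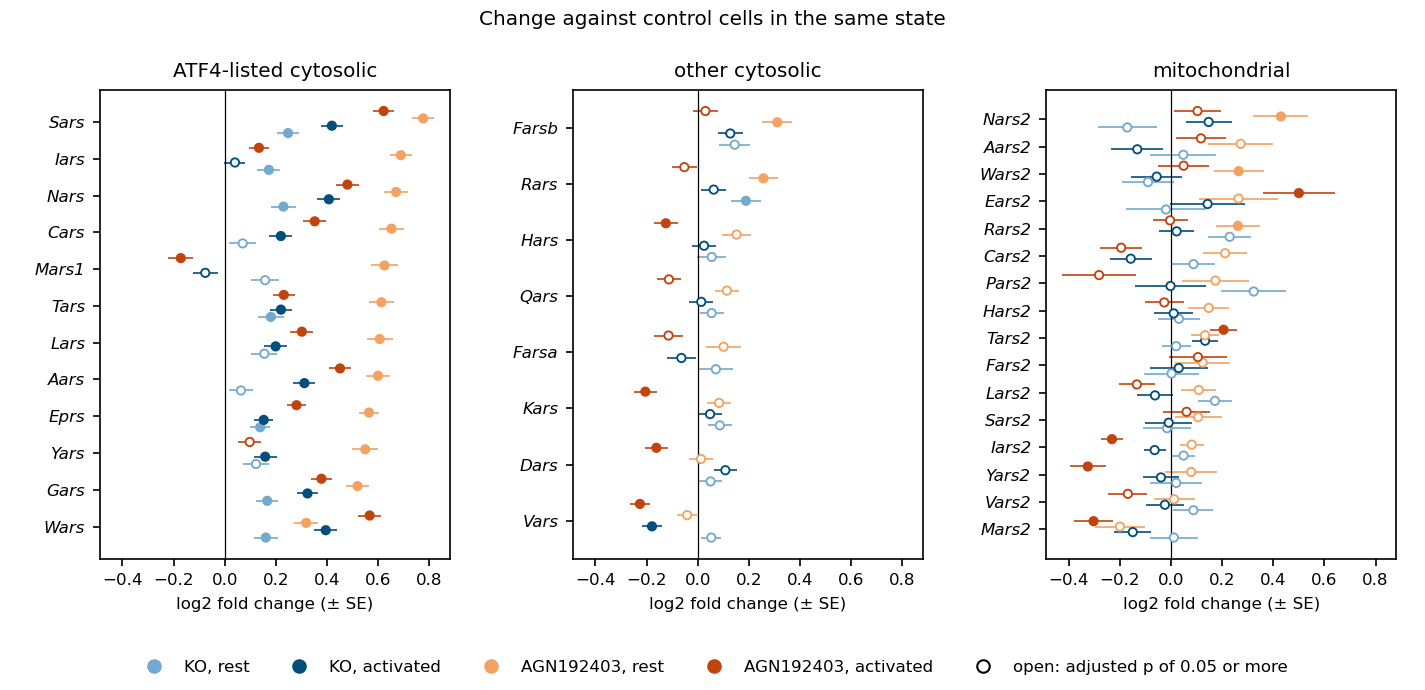
Log2 fold change (horizontal axes, ± SE of the fit) of Tmed10 KO and of AGN192403 against control cells in the same state for each member, in panels for ATF4-listed cytosolic, other cytosolic and mitochondrial members, ordered by the AGN192403 change at rest. Filled points passed an adjusted p of 0.05; all 12 ATF4-listed members are filled and to the right for AGN192403 at rest, and no mitochondrial member is filled for KO.

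Tmed10 KO and AGN192403 were compared with each other directly, since their changes against control share the control libraries. At rest 12 cytosolic and 2 mitochondrial members were lower in KO than in AGN192403 cells and 0 were higher, where 16.6% of all tested genes were called, 7.78% lower and 8.83% higher. The 12 cytosolic members were the 12 ATF4-listed ones (median log2 fold change -0.45), and 0 of the other 8 were called by edgeR or DESeq2 (median -0.04). Of the 36 members, DESeq2 called 0 higher, and 2 were higher at an unadjusted p under 0.05 in edgeR. Among cytosolic members Cars had the largest difference, 78.1 and 79.8 CPM in KO and 113 and 122 CPM in AGN192403 libraries (-0.58 ± 0.05, adjusted p 4.52e-09). It was followed by Aars (-0.54 ± 0.04), Sars (-0.53 ± 0.04), Iars (-0.52 ± 0.04) and Mars1 (-0.47 ± 0.05). The mitochondrial members were Nars2, with 9.94 and 11.2 CPM against 15.7 and 15.9 CPM (-0.60 ± 0.11), and Wars2, with 14.9 and 14.6 CPM against 19.02 and 18.8 CPM (-0.35 ± 0.10). The 2 mitochondrial calls became 1 without any single library of these 4.

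After activation the members differed in both directions. Of the 12 ATF4-listed members, 5 were lower in KO cells (Sars -0.20, Wars -0.17, Aars -0.14, Cars -0.13 and Eprs -0.13, as log2 fold changes), while 3 of the other 8 cytosolic and 2 mitochondrial members were higher. Of all tested genes 20.3% were called, 7.34% lower and 13% higher. Dars stood at 237 and 245 CPM in KO and 192 and 207 CPM in AGN192403 libraries (0.27 ± 0.05, adjusted p 9.47e-05) and Kars at 378 and 409 CPM against 314 and 344 CPM (0.25 ± 0.05). Both groups were apart in these 2 genes. Hars (0.15 ± 0.05), Yars2 (0.29 ± 0.07) and Iars2 (0.17 ± 0.04) were the other higher members. With library totals in place of scaling factors 3 members were higher and 10 lower, in place of 5 and 5. Without replicate 1 of the activated KO cells 6 members were called in place of 10, and the 5 lower cytosolic members became 8 without replicate 1 and 1 without replicate 2 of the activated AGN192403 cells.

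**Figure D5:**
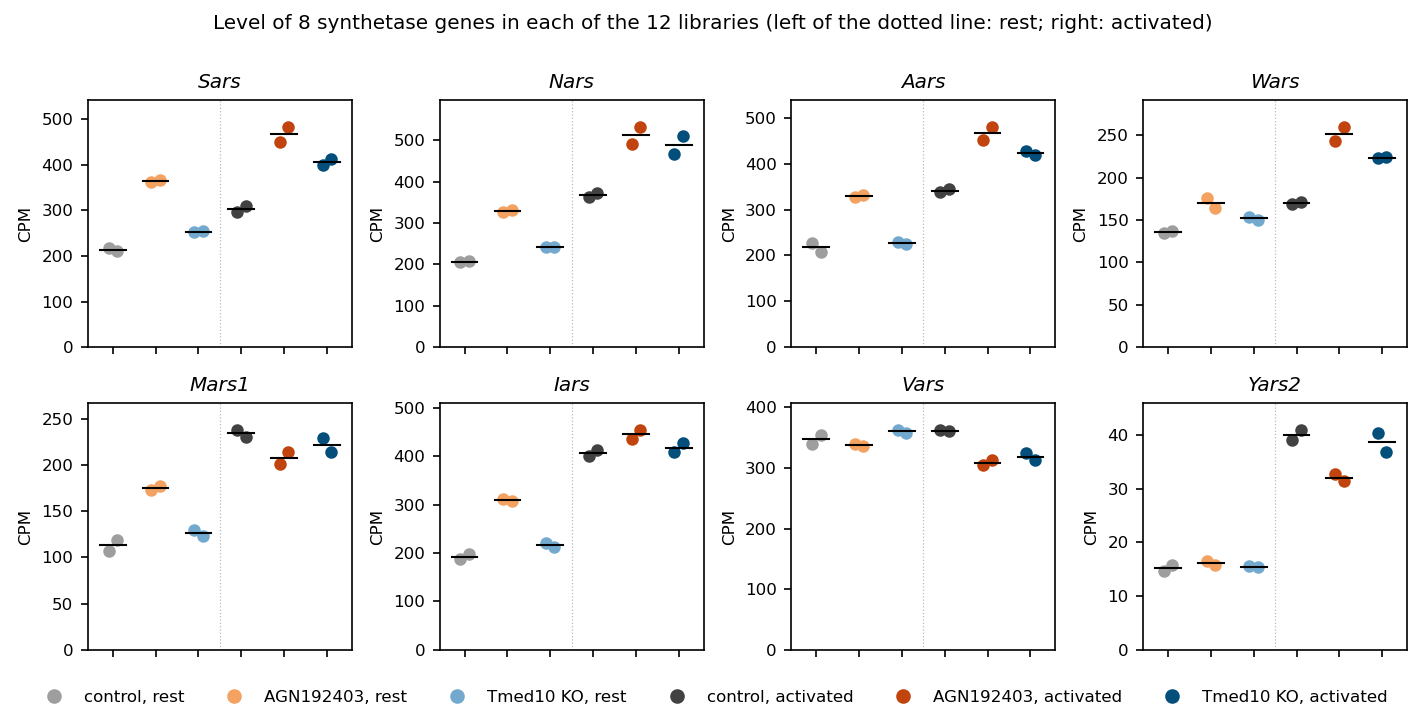
Level in CPM (vertical axes, from 0) of 8 members in each of the 12 libraries, with the group mean as a line and resting groups left of the dotted line. The means of Sars, Nars, Aars and Wars are highest in activated AGN192403 cells and those of Mars1 and Yars2 in activated control cells, and Vars lies between 305 and 364 CPM throughout.

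Of the 17 pairs of a cytosolic and a mitochondrial member that charge the same amino acid, the cytosolic member had the higher log2 fold change in 14 pairs on AGN192403 at rest, 11 after activation, 12 on Tmed10 KO at rest and 15 after activation. On activation of control cells it did in 14. Aars and Aars2 are one example, with 0.31 and -0.13 in activated KO cells, and Nars and Nars2 another, with 0.67 and 0.43 on AGN192403 at rest. Ears2 was a pair in the other direction, with 0.50 on AGN192403 after activation against 0.28 for Eprs. The pairs share some members, since Farsa and Farsb are both set against Fars2 and Eprs against both Ears2 and Pars2. Differences within pairs were not tested, and some were small, such as 0.0036 for Hars and Hars2 on AGN192403 at rest.

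Genes around the synthetases were counted from 5 lists. These lists were drawn up with earlier results of these data known, so that the counts describe the values and are no independent test. Of 28 regulators and targets of ATF4 that are no synthetases, 24 were higher and 1 lower on AGN192403 at rest, 27 and 1 after activation, 16 and 0 on Tmed10 KO at rest and 26 and 1 after activation. Over all tested genes the share called higher was 11.6% and 16.4% for AGN192403 and 2.81% and 10.8% for KO, in the same order of states. The 0 stood also by DESeq2 and at an unadjusted p under 0.05 in edgeR, where 13 and 20 were higher. Atf4 itself stood at 260.3 and 269.8 CPM in resting vehicle and 428 and 439.95 CPM in resting AGN192403 libraries (log2 fold change 0.71), and at 289 and 301 CPM in resting KO libraries (0.15). Asns, which encodes asparagine synthetase and is no tRNA synthetase, changed by 1.34 and 0.46 in the same comparisons. Ddit4, an inhibitor of mTOR signalling, was the lower gene in 3 of these comparisons (-0.23 and -0.45 on AGN192403 and -0.24 on KO after activation).

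Among 15 synthetase-associated and editing factors, 6 were higher on AGN192403 at rest, among them Xpot (0.69), the export factor of tRNA, and Aimp1 (0.35), a scaffold of the complex. After activation 1 was higher (Xpot, 0.40) and 2 were lower, the scaffold Aimp2 (-0.19) and its partner Eef1e1 (-0.19). Over all tested genes 11.6% were higher at rest, and 16.4% were higher and 18.3% lower after activation. Neither count after activation stood above these shares. DESeq2 called 3 higher in place of 6 at rest and 0 lower in place of 2 after activation, where 3 were lower at an unadjusted p under 0.05 in edgeR. On Tmed10 KO 0 were called by edgeR or DESeq2 at rest, with 2 at an unadjusted p under 0.05 in edgeR, and 1 was higher after activation, Xpot (0.26). For KO, 7.44% of all tested genes were called at rest and 10.8% were higher after activation.

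The 4 mitochondrial elongation factors were all higher on activation of control cells, and 3 were lower on AGN192403 after activation (Gfm1 -0.30, Tufm -0.26 and Gfm2 -0.15, log2 fold changes). DESeq2 called 1 of these lower. Of all tested genes 36.4% were higher on activation of control cells, and 16.4% were higher and 18.3% lower on AGN192403 after activation. Of 8 MYC and growth genes, 6 were lower in that comparison, such as Ncl (-0.36), which encodes nucleolin. All 8 were higher on activation of control cells, with Myc at 211 and 228 CPM at rest and 499.5 and 524 CPM after activation. Of the 5 cytosolic elongation factors, 3 were higher and 1 lower on AGN192403 after activation.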

How the data were processed

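Poly(A) RNA of the 12 libraries was prepared with a stranded kit and read from one end. The deposited table holds raw counts per gene and library, which the authors made with STAR (2.6.0c in the submitters' processing notes) and HTSeq on GRCm38. Here edgeR 4.0.16 in R 4.3.3 was used with filterByExpr, TMM factors and a quasi-likelihood fit with 1 coefficient for each of the 6 groups, which leaves 6 residual degrees of freedom. CPM values use the scaled totals of the 13167 tested genes, and p-values were adjusted by Benjamini-Hochberg over these genes. The fit was also run on simulated counts, which took their spread from these libraries, so that this run cannot test the spread itself. The members and lists were chosen with earlier results of these data known. In each comparison, up to 5 cytosolic and 3 mitochondrial called members with the largest rise, and as many with the largest fall, are named, with library values for those named repeatedly, and members called in opposite directions in the 2 states. Alternatives were DESeq2 1.42.0, other filters, other scaling, a replicate block, only the libraries compared, and each library left out. Exon lengths and overlaps came from the Ensembl annotation and promoters from RefSeq.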

Additional observations from a re-analysis of the deposited data

Results flagged for a closer look

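The effect of AGN192403 on 18 members differed between resting and activated cells by edgeR's test of the difference itself. Over all tested genes 19.7% were called, 11.1% lower and 8.62% higher. The difference is the activation response of treated cells minus that of vehicle cells on the log2 scale. It was lower for Mars1 (-0.80), Iars (-0.55), Yars (-0.45), Tars (-0.38), Rars (-0.31), Lars (-0.30) and Cars (-0.30). It was also lower for Kars (-0.29), Eprs (-0.28), Farsb (-0.28), Hars (-0.28), Qars (-0.23), Nars (-0.19) and Vars (-0.18), with adjusted p from 0.000449 (Eprs) to 0.0413 (Nars) in these 7. For Nars and Vars the call was lost in 13 and 12 of 19 alternatives. Of the mitochondrial members it was lower for Cars2 (-0.41), Yars2 (-0.40) and Iars2 (-0.31). It was higher for Wars alone (0.25). DESeq2 called 11 members lower and 1 higher. Without replicate 2 of the treated resting cells 8 members were called.

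The effect of Tmed10 KO differed between the states for 3 members by the same test, KO minus control. Over all tested genes 4.96% were called, 3.07% higher and 1.89% lower. The activation response was larger in KO cells for Aars (0.25) and Wars (0.23) and smaller for Vars (-0.23). These calls are the least stable of the comparisons made here, since 10 of the 12 fits that leave out a library moved their count by more than 1.5 times.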

How the results depend on the processing

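Of 190 calls of a member in a comparison, followed through 3610 refits with another choice, 3369 kept their direction and side of the threshold, 241 passed it no longer and 0 changed direction. DESeq2 in place of edgeR called 5 members in place of 8 for Tmed10 KO against control at rest, 1 in place of 3 for the difference of activation responses between KO and control, and 6 in place of 10 for KO against AGN192403 after activation. With library totals in place of scaling factors the cytosolic median of KO against AGN192403 after activation went from 0.02 to -0.0308, and the cause was not tested. With 1 library left out, the number of called members ranged from 2 to 14 for KO at rest, 10 to 13 for KO after activation, 14 to 19 for AGN192403 at rest and 16 to 20 after activation. It ranged from 27 to 30, 26 to 29 and 28 to 31 for activation of control, AGN192403 and KO cells. For the differences of activation responses it ranged from 0 to 5 (KO) and 8 to 22 (AGN192403), and for KO against AGN192403 from 12 to 15 at rest and 6 to 11 after activation. A lone library of a group is then assumed to vary like those of the other groups. With the replicate number as a block, edgeR called 9 and 13 members for KO, 18 and 21 for AGN192403, 29, 29 and 31 for activation, 4 and 21 for the differences and 15 and 12 for KO against AGN192403. By the rule used here the numbers were not taken to pair the samples over all 6 groups, since 3 of 15 pairs of groups had correlations of same-numbered deviations over 0.1. These 3 (0.189, 0.239 and 0.213) are the pairs among resting vehicle, activated vehicle and activated AGN192403 control cells. The other pairs of groups reached at most 0.0288. Same-numbered libraries of these 3 groups may thus be related, and a block over these groups alone was not fitted. With the longest transcript as length, levels per kilobase moved by more than the mean replicate SD for 33 of 36 members. With 2 libraries a group, small changes are little resolved, and mitochondrial members, with as few as 54 counts in a library, less so than cytosolic ones.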
